A study of Mus musculus with 6 samples.

Results

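The genes described here are Timp1 and Timp2, which encode secreted inhibitors of metalloproteinases, and 7 tetraspanin genes, Cd63, Cd9, Cd81, Cd82, Cd151, Cd53 and Cd37. They were chosen by name, for their place in the TIMP1 to CD63 pair of ligand and receptor and in the family of CD63. All 9 were among the 14481 genes of the counts table and among the 14319 tested. RNA came from wild-type mouse CD8+ T cells, which are cytotoxic lymphocytes, in bulk culture. In every group the sorted cells had been activated with plate-bound anti-CD3 at 1 µg/ml, anti-CD28 at 1 µg/ml and interleukin 2 at 0.1 µg/ml in medium with 10% serum. They received conditioned medium (CM) of astrospheres at day 1 and were harvested for RNA 2 days later, at day 3. The 2 groups, with 3 libraries each, differ in the source of that medium: astrospheres positive (STAT3+ CM) or negative (STAT3- CM) for pSTAT3, the phosphorylated form of the transcription factor STAT3. Cells without CM were not analysed here. Whether the replicates came from different mice or cultures is not said in the labels, so the spread that the tests use is that among these libraries and may be technical.

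TIMP1 blocks matrix metalloproteinases through its amino-terminal part, and it also acts as a signal by binding CD63 together with integrin beta 1 on the cell surface. CD63 belongs to the tetraspanins, membrane proteins that cross the bilayer repeatedly and gather integrins, other receptors and enzymes into shared patches; most CD63 lies in late endosomes, lysosomes and, in killer T cells, lytic granules. The study is concerned with TIMP1 from astrocytes and CD63 on T cells, and the T cell libraries bear on the receiving side. They hold the RNA of the T cells and not the TIMP1 protein of the medium.

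Total counts were 43346089 to 53630514 per library, so that 3 counts corresponded to 0.0542 to 0.0721 CPM (the count relative to the library total, scaled with TMM factors). Over all genes the libraries did not separate by medium on the first 2 principal components. STAT3- CM replicate 3 lay farthest out on the first principal component (39.6, against -23.9 to 16.3 for the others), and STAT3+ CM replicate 1 on the second (38.1, against -17.5 to 19.2). CD8+ T cell markers were abundant in each library, with a summed level of 3975 to 4828 CPM over 12 genes of 12. Of 12 astrocyte and glioma markers 4 were in the table, with summed levels of 16.15 to 19.3 CPM in STAT3- CM and 10.13 to 20.03 in STAT3+ CM. The defining markers Gfap, Aqp4, Slc1a3 and S100b were not among its genes.

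The promoters of Timp1 and Cd63 are shown because these are the ligand and receptor genes and had the largest negative and positive log2 fold changes among the members. The STAT3 label describes the astrospheres, not the T cells. All 9 genes had promoter windows in RefSeq (build GRCm38.p6), 13 windows in all since Cd82 and Cd151 have several starts. For Timp2, Cd82 start 3 and Cd151 start 2, the bases after the start were not matched to a GENCODE M21 transcript of the gene. Their windows are counted with the rest. The 250 bases before each start were searched on both strands for 5 motifs: the STAT core TTCNNNGAA, the AP-1 site TGANTCA, the ETS site CAGGAAGT, the SP1 core GGGCGG and TATAAA. No searched motif overlapped another in the windows printed. Capitals mark every match, read 5′ to 3′ on the strand of the gene.
Timp1, chrX:20869916-20870165, plus strand: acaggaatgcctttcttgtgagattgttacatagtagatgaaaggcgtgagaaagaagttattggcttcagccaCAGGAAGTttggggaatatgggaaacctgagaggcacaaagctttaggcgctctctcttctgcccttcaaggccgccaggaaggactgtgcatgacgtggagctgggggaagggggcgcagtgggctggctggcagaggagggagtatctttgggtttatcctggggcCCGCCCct
Cd63, chr10:128909095-128909344, plus strand: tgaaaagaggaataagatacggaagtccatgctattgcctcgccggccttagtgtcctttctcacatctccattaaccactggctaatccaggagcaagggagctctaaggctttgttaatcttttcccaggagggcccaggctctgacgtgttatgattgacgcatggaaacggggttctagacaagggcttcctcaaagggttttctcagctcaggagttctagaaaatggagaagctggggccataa
In the Timp1 window the ETS site began 176 bases before the start and the SP1 core, on the opposite strand, 8 bases before it. The Cd63 window held 0 matches to the 5 motifs. The STAT core was present in 0 of the 13 windows, where 7.02% of 32851 promoter windows of the same length held it, and the AP-1 site likewise in 0, against 6.75%. The ETS site was found in 1 of the 13 windows, that of Timp1, against 2.69% of all windows. The SP1 core was found in 8 of the 13 windows, belonging to 7 of the 9 genes, against 32.7% of all windows. These matches describe the letters of the windows, and no binding was measured here.

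Timp1, the ligand of the pair, was scarce in the T cells and had the lowest level per kilobase of exon of the 9 genes. Its reads numbered 62, 27 and 19 in the STAT3- CM libraries, against 5, 7 and 11 with STAT3+ CM, or 1.37, 0.575 and 0.411 CPM against 0.110, 0.168 and 0.199. Every STAT3+ CM library held less than every STAT3- CM library, and STAT3- CM replicate 1 alone stood above 1 CPM. The means were 0.785 ± 0.512 CPM (SD, n = 3) and 0.159 ± 0.045, and the log2 fold change (log2FC), STAT3+ CM minus STAT3- CM, was -2.26 with a standard error (SE) of 0.58. By edgeR's quasi-likelihood test this did not pass the threshold of 0.05 (unadjusted p = 0.00281, Benjamini-Hochberg adjusted p = 0.702 over all genes). Timp1 ranked 55 of 14319 genes by p. Of the 9 members 0 passed the adjusted threshold, as did 0% of all genes tested. At an unadjusted p under 0.05 edgeR had 1 member, Timp1, and 521 genes in all, or 3.64%; in the lower direction these were 329 genes, or 2.3%, and in the higher direction 0 members, against 1.34%. DESeq2 called 48 genes (0.335%), none of them a member, and gave Timp1 an adjusted p of 0.132. Groups without overlap, STAT3+ CM being lower, were found in 4.18% of genes, and in 1 of the 9 members.

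The size of the Timp1 difference leaned on the library with the most Timp1 reads. Without STAT3- CM replicate 1 the log2FC was -1.60 (SE 0.48, unadjusted p = 0.00622, adjusted p = 1.0 by edgeR), and without STAT3- CM replicate 3 it was -2.56 (SE 0.51, adjusted p = 0.150). A filter of at least 1 CPM in at least 3 libraries left the gene out of the test.

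Timp1 lies whole inside Syn1, the gene of the synaptic vesicle protein synapsin I, on the opposite strand, and the exons of the genes share 0 bases in the GENCODE M21 annotation. Syn1 was counted separately, at 2.05, 1.94 and 1.69 CPM with STAT3- CM, and 0.573, 0.721 and 1.25 with STAT3+ CM. The groups of the host gene thus did not overlap either, with STAT3+ CM lower (log2FC -1.12, SE 0.32, unadjusted p = 0.00521, adjusted p = 0.863 by edgeR). Of all genes 4.18% had groups without overlap on the lower side, and Syn1 was added after values were seen. Whether the counting kept the strands of Timp1 and Syn1 apart is not given in the sources used here. The part of 1 gene's reads in the count of the other was not tested.

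Markers of dendritic cells, the antigen-presenting cells that prime T cells, were also lower in sum with STAT3+ CM. Of 13 such genes 7 were in the table, and their summed level ran from 132.2 to 185.3 CPM with STAT3- CM, and from 95.3 to 119.9 with STAT3+ CM, without overlap. Without Cd74, the class II invariant chain, the sums of the other 6 genes were 67.8 to 91.1 CPM and 59.2 to 75.2 CPM, which overlap. Of the 7 genes 6 had negative log2FCs, 4 of them with groups that did not overlap (4.18% of all genes), with a median of -0.61 beside 0.00076 for all genes tested; the class II chain H2-Aa had -1.74 (SE 0.37, adjusted p = 0.534 by edgeR) and the class II chain H2-Eb1 -0.88. The class II chain H2-Ab1 had 0.13, at 7.501 ± 2.06 and 8.21 ± 0.496 CPM with overlap, and Itgax, the integrin chain CD11c, -0.035. Zbtb46, another gene of the list, stood at 15.64 ± 2.79 CPM with STAT3- CM, and 10.22 ± 2.77 with STAT3+ CM. Its groups did not overlap (log2FC -0.61, SE 0.22, unadjusted p = 0.0192, adjusted p = 0.989 by edgeR). Batf3 had -0.14, with overlap. The listed markers Clec9a, Xcr1, Flt3, Siglech, Clec10a and Cd209a were not among the genes of the table. Macrophage and microglia markers, 7 of 15 in the table, summed to 5.43 to 11.45 CPM and 5.28 to 7.12 CPM and so overlapped. CD8+ T cell markers had 11 of 12 positive log2FCs (median 0.15), with 0 at an unadjusted p under 0.05 by edgeR. Of the 12, 2 had groups that did not overlap, with STAT3+ CM higher, as did 3.78% of all genes. The summed fibroblast and endothelial markers, 4 of 10 in the table, stood at 32.08 to 32.8 CPM with STAT3- CM. With STAT3+ CM that sum was 35.43 to 48.55 CPM, without overlap. Most of it was Pecam1 (means 31.16 and 39.66 CPM, log2FC 0.35), and the other 3 genes had negative log2FCs. The listed markers Cdh5, Kdr, Tek, Col1a2, Col3a1 and Dcn were not among the genes of the table. The part of other cells in the Timp1 result was not tested. In bulk RNA, fewer cells of a type and less RNA per cell cannot be told apart.

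**Figure D1:**
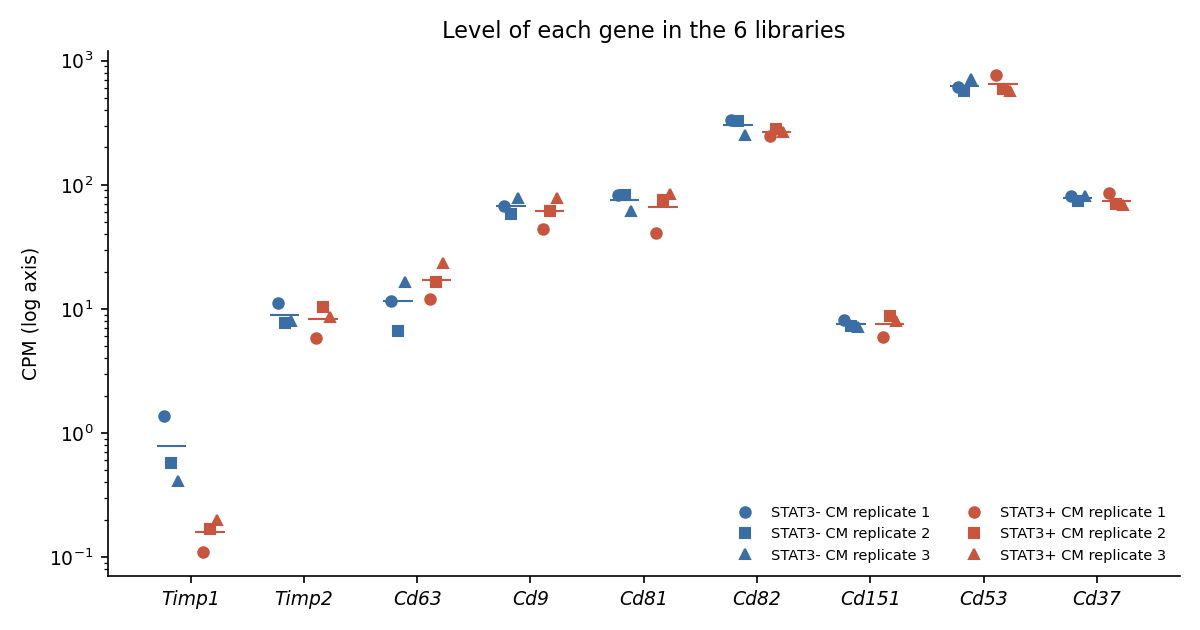
Level of each of the 9 genes in CPM, on a log axis, with 1 point per library (blue STAT3- CM, red STAT3+ CM, shapes for replicates) and a bar at each group's mean. Timp1 is the gene whose groups do not meet, at 0.411 to 1.37 CPM against 0.110 to 0.199; in the other 8 the groups overlap.

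Timp2, a close relative of Timp1 that inhibits metalloproteinases and helps to activate MMP2 at the cell surface, had groups that overlapped. Its levels were 11.1, 7.71 and 8.06 CPM with STAT3- CM, and 5.77, 10.4 and 8.52 with STAT3+ CM. The highest library belonged to STAT3- CM and the lowest to STAT3+ CM, while the other 2 libraries of STAT3+ CM lay above the other 2 of STAT3- CM. The means were 8.95 ± 1.86 CPM and 8.22 ± 2.32, with a log2FC of -0.12 (95% interval -0.66 to 0.41, adjusted p = 0.989 by edgeR). That interval allows a change of moderate size either way. Timp3 and Timp4, the remaining TIMP genes, were not among the genes of the table.

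Cd63, the receptor, was present in every library at a modest level, and was the member with the largest positive log2FC. It stood at 11.6, 6.58 and 16.6 CPM with STAT3- CM, and 12.01, 16.4 and 23.3 with STAT3+ CM. The highest library was STAT3+ CM replicate 3 and the lowest STAT3- CM replicate 2, but STAT3- CM replicate 3 lay above STAT3+ CM replicates 1 and 2, so the groups overlapped. The means of 11.6 ± 4.99 and 17.2 ± 5.68 CPM gave a log2FC of 0.58 (SE 0.33, 95% interval -0.15 to 1.31), which did not pass the test (unadjusted p = 0.107, adjusted p = 0.989 by edgeR). The spread within each group, with a coefficient of variation of 43.2% with STAT3- CM and 33.0% with STAT3+ CM, was the widest among the 7 tetraspanin members with STAT3- CM. Without STAT3- CM replicate 2 the log2FC was 0.29, without STAT3+ CM replicate 3 it was likewise 0.29, and without STAT3- CM replicate 3 it was 0.93 (unadjusted p = 0.0125, adjusted p = 0.538 by edgeR). Leaving out both outlying libraries, STAT3- CM replicate 3 and also STAT3+ CM replicate 1, gave 1.13 (SE 0.27, adjusted p = 0.225). No alternative placed Cd63 past the adjusted threshold.

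**Figure D2:**
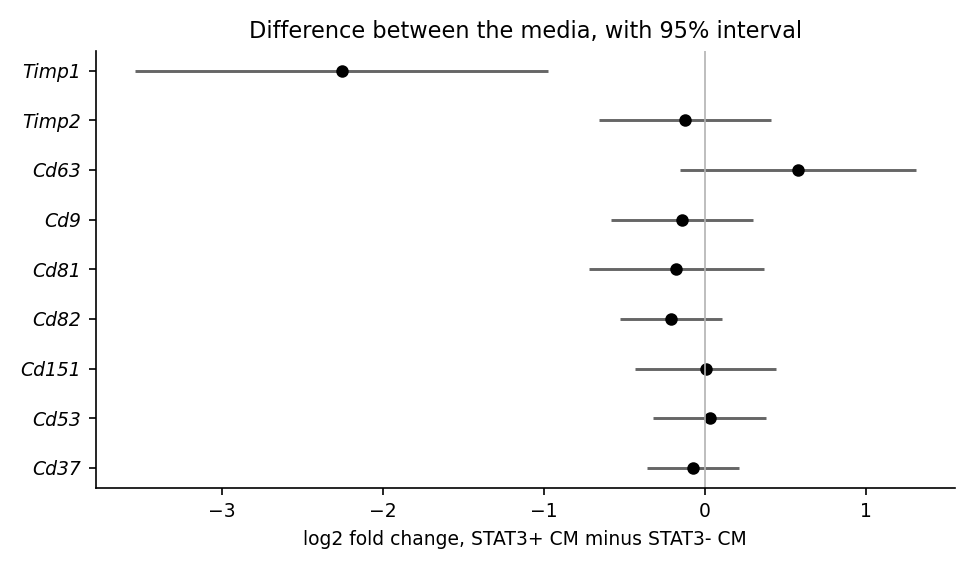
Log2 fold change of each gene, STAT3+ CM minus STAT3- CM, with its 95% interval from edgeR's fit. The interval of Timp1 (-3.54 to -0.97) lies below 0 before adjustment for the number of genes tested; the other 8 intervals include 0.

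Cd53 was the most abundant of the 9 genes per kilobase. This gene, found on most white blood cells, had 366 CPM per kilobase of exon (range over the 6 libraries 325 to 444), and Cd82, a tetraspanin that can costimulate T cells and restrains the spread of tumour cells, had 94.8 (81.7 to 111.3). These 2 ranges do not meet each other or any other member's. Cd9 (31.7, range 21.7 to 38.4), Cd81 (24.7, 14.1 to 29.0) and Cd37 (21.8, 19.5 to 24.3) formed the next group, whose ranges overlap. Cd63 followed at 3.91 (1.79 to 6.32) and Cd151 at 2.75 (2.15 to 3.21), overlapping each other and Timp2 at 2.204. Timp1 came last at 0.532 CPM per kilobase. Of the summed level per kilobase of the 7 tetraspanin members, Cd53 made up 62.8% to 75.1% in each library and Cd63 0.345% to 1.24%.

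**Figure D3:**
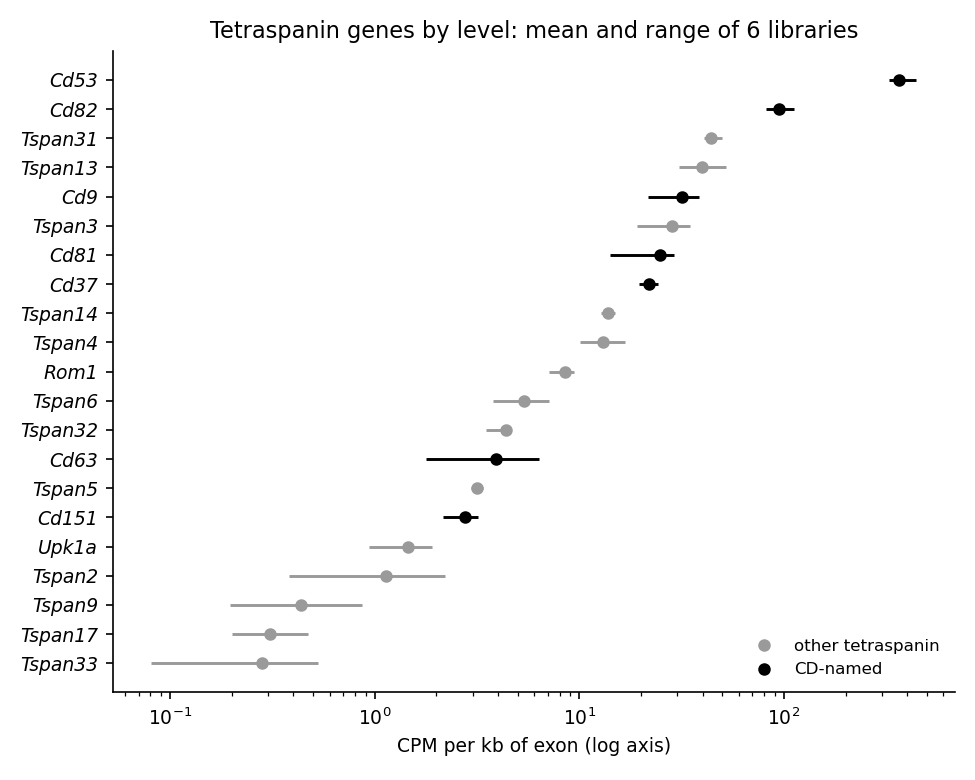
Level of the 21 tetraspanin genes of the table in CPM per kilobase of exon, on a log axis; points are means and lines the range over the 6 libraries. Cd53 and Cd82 lead, at 366 and 94.8, and Cd63 stands at 3.91, rank 14 of 21.

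Cd53 and Cd37, both restricted to blood cells and linked to lymphocyte adhesion and signalling, had log2FCs near 0. Cd53 stood at 617.5, 566.1 and 707.7 CPM with STAT3- CM, and 773.1, 593.4 and 567.2 with STAT3+ CM (log2FC 0.032, 95% interval -0.32 to 0.38). Cd37 stood at 80.7, 73.4 and 81.8 CPM with STAT3- CM, and 85.5, 69.95 and 68.7 with STAT3+ CM (log2FC -0.074, 95% interval -0.36 to 0.21). In both genes STAT3+ CM replicate 1 was the highest of the 6 libraries and the groups overlapped. Cd37 had the smallest ratio of highest to lowest library among the members, 1.24.

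Cd9, Cd81 and Cd82 organise integrins and co-receptors at the surface, and Cd81 is known as a costimulator of T cells. Cd9 stood at 67.3, 58.7 and 78.2 CPM with STAT3- CM, and 44.4, 61.9 and 78.5 with STAT3+ CM (log2FC -0.14, 95% interval -0.58 to 0.30). Cd81 stood at 82.7, 82.5 and 61.0 CPM and at 40.6, 75.9 and 83.6 (log2FC -0.18, 95% interval -0.72 to 0.37). In both, STAT3+ CM replicate 1 was far the lowest library while STAT3+ CM replicate 3 was the highest, so the spread within STAT3+ CM exceeded the difference of the means. Without STAT3+ CM replicate 1 the signs turned, to 0.046 for Cd9 and 0.081 for Cd81. Cd82 stood at 334.5, 329.0 and 253.0 CPM with STAT3- CM, and 245.4, 282.3 and 265.8 with STAT3+ CM (log2FC -0.21, 95% interval -0.52 to 0.11, adjusted p = 0.989 by edgeR). STAT3- CM replicates 1 and 2 were its highest libraries, and STAT3- CM replicate 3 lay among those of STAT3+ CM. Cd82 kept its sign in all 18 alternatives, from -0.33 to -0.14, and passed the adjusted threshold in none.

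Cd151, the tetraspanin that binds laminin-binding integrins, had the log2FC nearest 0. It stood at 8.10, 7.30 and 7.12 CPM with STAT3- CM, and 5.90, 8.79 and 7.95 with STAT3+ CM, with means of 7.51 ± 0.521 and 7.55 ± 1.48 and a log2FC of 0.0068 (95% interval -0.43 to 0.45). Both the highest and the lowest library belonged to STAT3+ CM. Cd151 shares 193 exon bases with the opposite-strand transcript Gm10575, Cd81 104 with R74862, Cd9 218 with Gm26728 and Cd37 13 with Tead2. Their strand limit differs in kind from that of Timp1, which shares 0 exon bases with Syn1. Of these partners only R74862 was in the table, at 1.098 CPM with STAT3- CM and 0.811 with STAT3+ CM. The part of opposite-strand reads in the counts of these members was not tested.

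Single libraries held many of the extreme values. STAT3+ CM replicate 1 had the lowest value of 6 of the 9 genes (Timp1, Timp2, Cd9, Cd81, Cd82 and Cd151) and the highest of Cd53 and Cd37. It was also the library with the highest Cd8a (1064 CPM, against 782.3 to 937.1 in the others) and Cd8b1 (513.5 CPM, against 353.3 to 437.8), and the part of these differences in the members' values was not tested. STAT3- CM replicate 1 had the highest Timp1, Timp2 and Cd82, and STAT3+ CM replicate 3 the highest Cd63, Cd9 and Cd81. Of the 9 log2FCs 6 were negative and 3 positive, while 49.8% of all genes tested were negative. The median over the 9 was -0.12, beside 0.00076 for all genes.

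**Figure D4:**
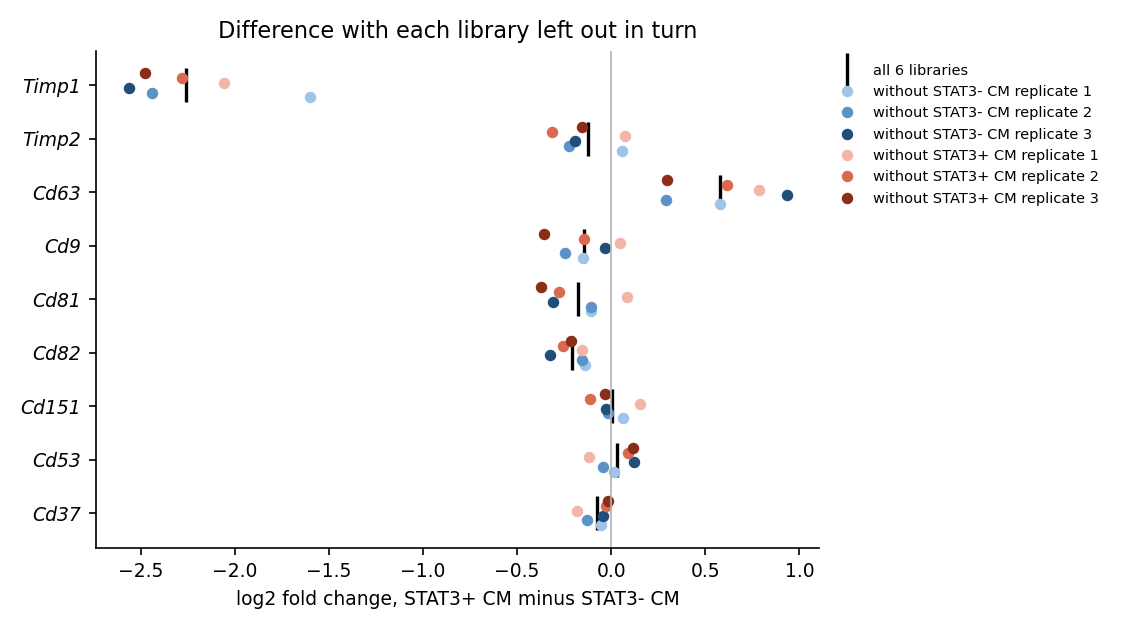
Log2 fold change of each gene with all 6 libraries (black bar) and with each library left out in turn (points). Timp1 stays between -2.56 and -1.60 and Cd63 between 0.29 and 0.93, while Timp2, Cd9, Cd81, Cd151 and Cd53 fall on either side of 0.

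Of 24 further tetraspanin genes listed, 14 were in the table. Of the 14, 10 had positive and 4 negative log2FCs, 0 passed the adjusted threshold (0% of all genes) and the median was 0.13. Tspan31 (44.2 CPM per kilobase) and Tspan13 (39.6) were the most abundant of them. Per kilobase of the longest transcript Tspan31 led at 62.25, followed by Tspan3 at 56.8 and Tspan13 at 50.7, with Cd9 at 52.8 between the latter pair. Tspan4, a tetraspanin enriched in the migrasomes that moving cells leave behind, stood at 24.2, 26.4 and 21.9 CPM with STAT3- CM, and 28.6, 36.4 and 32.5 with STAT3+ CM. Its STAT3+ CM libraries lay above all of STAT3- CM (log2FC 0.43, SE 0.14, unadjusted p = 0.013, adjusted p = 0.989 by edgeR), as did those of 3.78% of all genes. Tspan33 had a log2FC of -1.04 (SE 0.45, adjusted p = 0.989) at 1.98 ± 0.908 and 0.947 ± 0.470 CPM, and Tspan3 one of -0.34 (SE 0.17, adjusted p = 0.989). Tspan5, Tspan14, Tspan17 and Tspan33 carry the protease ADAM10 to the surface. Of these, Tspan5 and Tspan14 were the better expressed, with log2FCs of -0.029 and 0.046. Tspan17, at 0.552, 0.532 and 0.780 CPM with STAT3- CM, was lower in each STAT3+ CM library, at 0.330, 0.432 and 0.433 (log2FC -0.63, SE 0.33, unadjusted p = 0.0868, adjusted p = 0.989 by edgeR). Groups without overlap on the lower side were found in 4.18% of all genes.

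TIMPs inhibit many metalloproteinases, though each TIMP has its own range and several ADAM proteases lie outside that of TIMP1. Of 39 metalloproteinase genes 16 were in the table, and 0 passed the adjusted threshold, with 6 positive and 10 negative log2FCs and a median of -0.12. By level per kilobase Adam10 (31.5 CPM per kilobase), Adam17, the sheddase of TNF (10.95), and Adam19 (10.3) led. Adam10 stood at 161.8 ± 11.6 CPM with STAT3- CM, and 147.9 ± 16.2 with STAT3+ CM (log2FC -0.13, SE 0.13). Mmp9, whose proenzyme binds TIMP1, and Mmp2 were not among the genes of the table. Mmp23 had the smallest p of the list, at 0.548 ± 0.151 and 0.264 ± 0.041 CPM (log2FC -1.03, SE 0.37, adjusted p = 0.989 by edgeR), and was followed by Adam9 (-0.35, SE 0.19) and Mmp15 (0.60, SE 0.41).

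Partners of TIMP1 and of tetraspanins at the surface were split in direction. Of 23 genes 21 were tested, 11 positive and 10 negative, with 0 past the adjusted threshold and a median of 0.0995. Itgb1, the integrin chain that joins CD63 in binding TIMP1, stood at 310.1, 352.1 and 201.7 CPM with STAT3- CM, and 207.9, 268.7 and 289.8 with STAT3+ CM, with overlap (log2FC -0.17, SE 0.21). Cd74, the class II invariant chain and a reported TIMP1 receptor, stood at 79.1, 94.2 and 50.7 CPM with STAT3- CM, and 36.1, 44.7 and 36.1 with STAT3+ CM. The STAT3+ CM libraries were all lower (log2FC -0.94, SE 0.21, unadjusted p = 0.00112, adjusted p = 0.563 by edgeR). Cd74 also stands among the dendritic cell markers above. Itga3, the integrin chain to which CD151 binds most tightly, stood at 10.95, 9.15 and 17.3 CPM against 3.99, 4.61 and 8.38, again without overlap (log2FC -1.12, SE 0.32, unadjusted p = 0.00526, adjusted p = 0.863 by edgeR). Ptgfrn, a partner of CD9 and CD81, had -0.48 (SE 0.22, unadjusted p = 0.0498, adjusted p = 0.989 by edgeR). These 3 of 21 genes stood at an unadjusted p under 0.05 on the lower side, against 2.3% of all genes. Groups without overlap on the lower side were found in 2 of the 21, against 4.18% of all genes.

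Signal carriers reported downstream of TIMP1 and CD63 include focal adhesion kinase, PI3K, AKT and ERK. Of 23 genes 22 were tested and 0 passed the adjusted threshold, with 8 positive and 14 negative log2FCs and a median of -0.042. Twist1, a transcription factor gene of that list, stood at 30.7, 19.95 and 14.1 CPM with STAT3- CM, and 2.60, 10.1 and 10.9 with STAT3+ CM (log2FC -1.45, SE 0.44, unadjusted p = 0.00881, adjusted p = 0.983 by edgeR). Pik3ca had -0.22 (SE 0.13) and Src, under 1 CPM, -0.41 (SE 0.34). Ptk2, the gene of focal adhesion kinase, had -0.12 (SE 0.18) and Akt1 -0.075 (SE 0.12).

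The machinery of the endosomes and vesicles that carry CD63 was divided in direction. Of 29 genes 25 were tested, 14 positive and 11 negative, with a median of 0.019 and 0 past the adjusted threshold. Rab27a, the small GTPase that docks lytic granules and CD63-bearing vesicles, stood at 108.2, 115.6 and 136.1 CPM with STAT3- CM, and 104.7, 74.3 and 89.2 with STAT3+ CM. The groups did not overlap (log2FC -0.42, SE 0.15, unadjusted p = 0.0189, adjusted p = 0.989 by edgeR). Rab11a, a GTPase of recycling endosomes, also had groups that did not overlap, with STAT3+ CM higher, at 76.4, 84.7 and 80.1 CPM against 92.2, 88.1 and 86.7 (log2FC 0.15, SE 0.11, unadjusted p = 0.222, adjusted p = 0.989 by edgeR). Of the 25 genes, 1 was thus lower and 1 higher without overlap, where 4.18% and 3.78% of all genes were. Hgs had -0.20 and Lamp1, a lysosomal membrane protein that travels with CD63, had 0.10 (SE 0.13).

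The patterns of Timp1 and Cd63 over the 6 libraries were set beside those of tested genes with a mean of at least 1 CPM. Genes with predicted, clone-named or mitochondrial symbols were left out. The measure was the root mean square difference of log2 CPM after each gene's own mean was removed. Nearest to Timp1 among 10772 genes were Pdzk1ip1 (0.28), Rxra (0.32), Pxdc1 (0.34), Ifitm3 (0.37) and Il1a (0.37), while Timp1's own deviation from its mean was 1.08. Each of these had its highest library in STAT3- CM replicate 1 and its lowest in STAT3+ CM replicate 1, as Timp1 did. Pdzk1ip1 stood at 4.28, 3.04 and 1.75 CPM with STAT3- CM, and 0.419, 0.865 and 0.704 with STAT3+ CM (log2FC -2.19, SE 0.41, adjusted p = 0.332 by edgeR). Rxra encodes a retinoid X receptor, Ifitm3 an antiviral membrane protein and Il1a the cytokine interleukin 1 alpha. Nearest to Cd63 among 10771 genes were Col9a3 (0.27), Ckb (0.27), Sh2b2 (0.28), Rps6kl1 (0.29) and Col11a2 (0.30), against an own deviation of 0.57 for Cd63. Ckb, the brain-type creatine kinase, stood at 23.4, 20.9 and 39.5 CPM with STAT3- CM, and 21.8, 34.1 and 43.4 with STAT3+ CM. As with Cd63, its lowest library was STAT3- CM replicate 2 and its highest STAT3+ CM replicate 3. With 6 libraries and so many genes compared, these lists describe the libraries only.

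**Figure D5:**
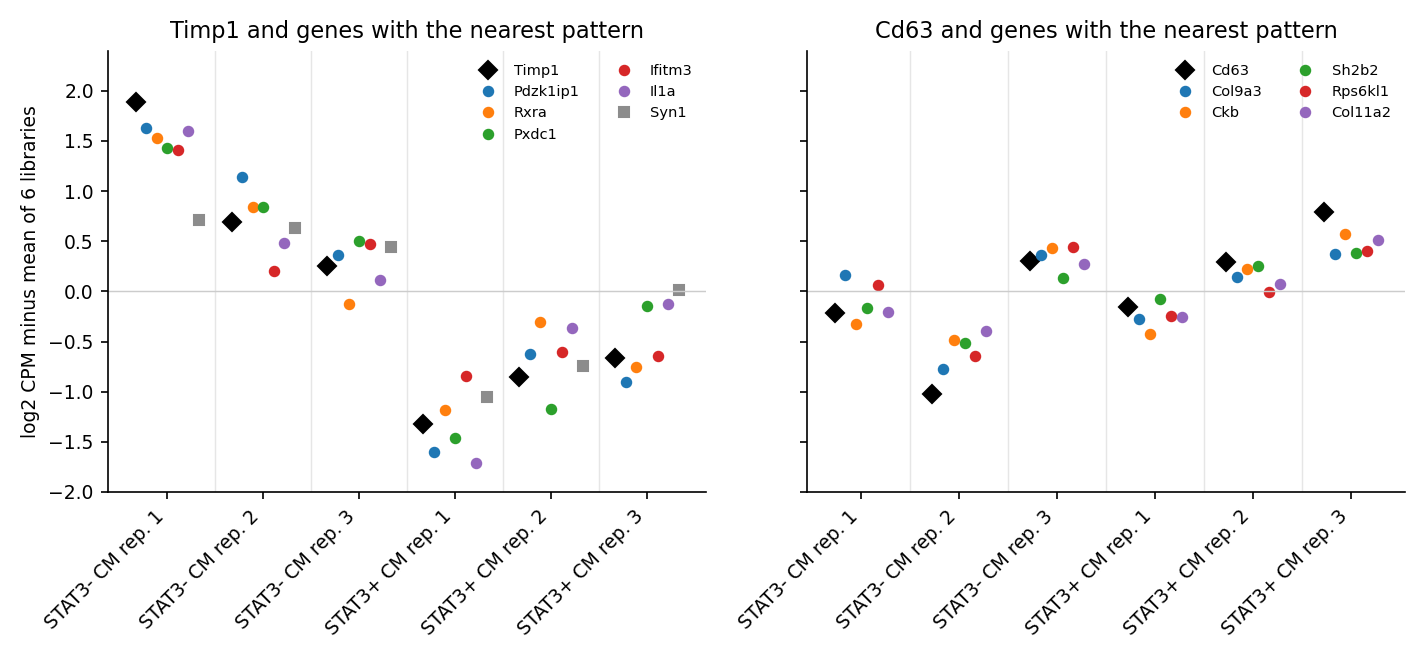
Log2 CPM minus each gene's mean over the 6 libraries, for Timp1 (left) and Cd63 (right, black diamonds) with the 5 genes nearest in pattern (circles) and, at left, the host gene Syn1 (grey squares). Timp1 ranges from 1.89 in STAT3- CM replicate 1 to -1.32 in STAT3+ CM replicate 1, and Cd63 from -1.02 in STAT3- CM replicate 2 to 0.795 in STAT3+ CM replicate 3.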

How the data were processed

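Gene counts were deposited by the authors as whole numbers, 1 column per library, matched to the samples by the labels. Per the submitters' processing notes, which give no order, the build named is GRCm39 and the tools are TopHat2 2.0.10 with Bowtie 1.0.0, Cufflinks 2.2.1, SAMtools 0.1.19 and FastQC. Which program counted the reads, on which annotation and with which strand setting, is not given in the sources used here. The lowest total of a gene over the 6 libraries was 40, so genes with fewer reads are not analysed here.

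Filtering with filterByExpr kept 14319 of 14481 genes. TMM factors were 0.9605 to 1.06. The groups were tested with edgeR 4.0.16 under R 4.3.3 (glmQLFit, robust, newer method), p-values were adjusted by Benjamini-Hochberg over all genes, and 0.05 was the threshold. Dividing the size of a log2FC by the root of its F gave the SE, and 95% intervals use the fitted degrees of freedom. Log2 CPM for patterns used a prior count of 2. Exon lengths came from GENCODE M21 (GRCm38), a build other than that of the counts. DESeq2 1.42.0 and limma 3.58.1 were alternatives. The workflow was tested on simulated data.

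The members and the gene lists were chosen with earlier results of these data known. Named genes were the 9 members; the 3 smallest p-values of each list where fewer passed the threshold; the most abundant tetraspanins and metalloproteinases per kilobase; and the 5 genes nearest in pattern to Timp1 and to Cd63. Syn1, R74862, Itgb1, Cd8a, Cd8b1, Tspan17, Ptk2, Akt1, Lamp1, Tspan5 and Tspan14 were added for their position or role after values were seen. So were H2-Ab1, Itgax, Zbtb46 and Batf3 of the dendritic cell markers. Marker genes taken by the rule are given mostly as sums.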

Additional observations from a re-analysis of the deposited data

How the results depend on the processing

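Of the 9 genes, 0 passed the adjusted threshold in any of the 18 alternatives. Over all genes, edgeR's count of 0 became 48 with DESeq2, 14 with limma-voom and sample quality weights, and 10 with both outlying libraries (STAT3- CM replicate 3, STAT3+ CM replicate 1) left out. With each library left out in turn it ran from 0 to 18, the highest without STAT3- CM replicate 3 (938 genes at an unadjusted p under 0.05, against 521), and 1 without STAT3- CM replicate 1. Without STAT3+ CM replicate 3 more genes, 1362, stood at an unadjusted p under 0.05 by edgeR, while the count of genes called was 0. Other scalings, filters, plain limma-voom, the older quasi-likelihood method and removal of mitochondrial genes left it at 0. Timp1, Cd63, Cd82 and Cd37 kept their sign in each alternative that could test them, 17 for Timp1 and 18 for the others. Cd151 turned to -0.033 with library totals only, -0.01 with limma-voom, -0.0088 with quality weights and -0.0063 with the replicate block. Cd53 turned to -0.0199 with library totals only, and without the 2 outlying libraries Cd53 was at -0.028, Cd9 at 0.158 and Timp2 at 0.0058. With each library left out in turn, Timp2 ran from -0.32 to 0.075, Cd9 from -0.36 to 0.046, Cd81 from -0.37 to 0.081, Cd151 from -0.11 to 0.154 and Cd53 from -0.12 to 0.123. The cause was not tested. Per kilobase of the longest transcript instead of all exons, the level was 52.8 CPM for Cd9, 44.2 for Cd81, 156 for Cd82, 4.04 for Cd151 and 30.2 for Cd37, and the order of the 9 genes was the same. The labels do not say whether equal replicate numbers mark paired libraries. After each group's mean was removed, equal numbers correlated across genes at -0.261, 0.281 and 0.182, which leaves pairing unsettled. With the replicate block 0 genes were called (709 at an unadjusted p under 0.05), and Cd63 had 0.61 (SE 0.24, unadjusted p = 0.0325, adjusted p = 0.965 by edgeR). Depth limits Timp1, with 5 to 62 reads per library, more than any other member.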
